A study of Saccharomyces cerevisiae with 180 samples.

Results

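The subject is 4 haploid yeast segregants in which most genes of chromosome II stood above their usual level, titled 8-1-a, 10-1-c, 13-2-c and 15-5-b. They are 4 of 86 segregants and of 90 cultures in all. They were chosen by a readout of the same arrays: the median over chromosome II genes, each centred over the segregants, was over 0.5 log2 units. They were set against 80 other segregants. The segregants 9-4-d and 14-6-d were left out because other chromosomes stood high in them. All segregants descend from a cross of the laboratory strain BY4716 with RM11-1a, a haploid derived from a vineyard isolate of Saccharomyces cerevisiae. BY4716 has mating type alpha and carries a LYS2 deletion. RM11-1a is of the opposite mating type, a, and has deletions of HO, URA3 and LEU2. Each culture was compared with 1 pool of BY4716 RNA on 2 two-colour arrays with the dyes exchanged, and both arrays were averaged. Each segregant is a separate strain with 1 culture, so the strain is the replicate, and the 2 parents had 2 cultures each (BY4716 and RM11).

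A haploid yeast cell normally carries each chromosome once. A cell that keeps an additional copy of a chromosome after a faulty division is called disomic for it. In laboratory disomic strains transcripts usually follow the dose of the gene, and most such strains grow slowly. Transcripts of some core histone genes, though not of all, are known to be held in check by feedback through the HIR repressor complex. Gene copy number was not measured here, so the strains are called by the level of their transcripts. In a bulk culture, a change in every cell and a larger change in some of the cells cannot be told apart.

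The medians that chose the strains were 0.77 in 13-2-c, 0.71 in 8-1-a, 0.63 in 10-1-c and 0.61 in 15-5-b. The next strains, just outside the limit, were 14-7-c at 0.06 and 4-1-c at 0.02. On single arrays the chromosome II median of the 4 strains lay between 0.47 and 0.77, and both dye orientations of each strain were high. The lowest pair was that of 15-5-b, with 0.47 on the array titled Cy3 and 0.72 on that titled Cy5. The other 15 chromosomes of these strains had medians between -0.13 and 0.11, and the 16 chromosomes of the 80 other segregants between -0.12 and 0.14. The value of 0.11 was that of chromosome IV in 10-1-c, which lay above chromosome IV in 80 of 80 other segregants. Without it the highest value was 0.03. Chromosome I of 13-2-c, at -0.13, and chromosomes IV, VII and XV of 8-1-a, at -0.08, -0.07 and -0.08, lay below the same chromosomes of all 80 others. Each array had been brought to a mean of 0, so high chromosome II values push the values of other chromosomes down. The median difference from the others over genes elsewhere was -0.06 in 8-1-a, -0.03 in 10-1-c, 0.01 in 13-2-c and -0.02 in 15-5-b. How much of the low chromosome medians comes from that offset was not tested.

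**Figure D1:**
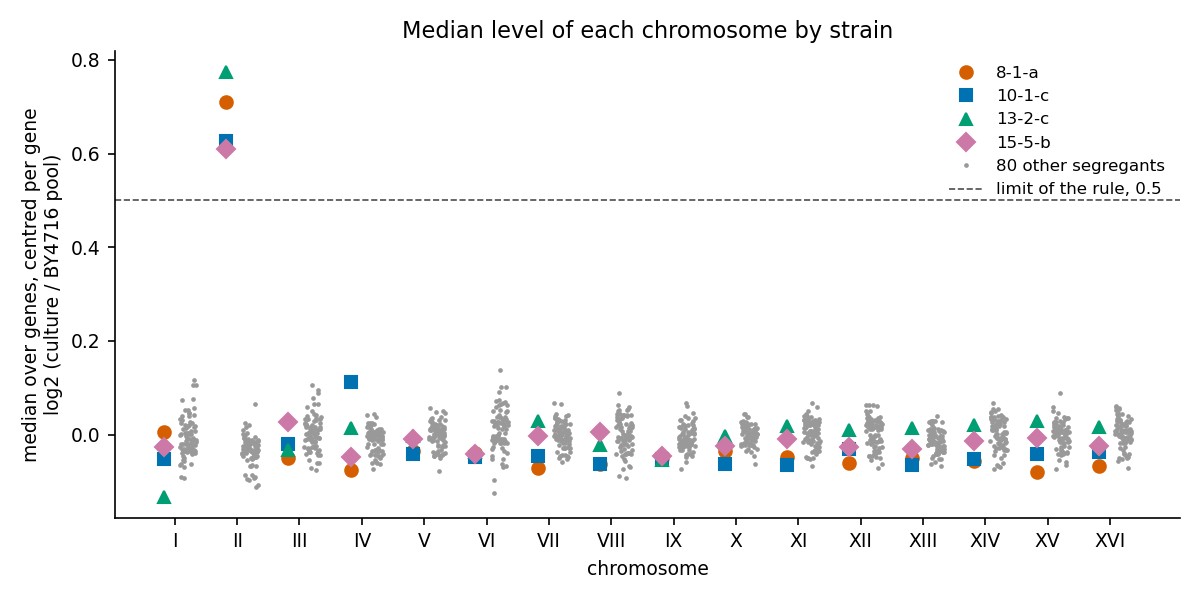
Median level of each of the 16 chromosomes, as log2 ratio of the culture over the BY4716 pool centred per gene, with the 4 raised strains as coloured symbols and the 80 other segregants as grey points. The 4 symbols above the limit of 0.5 are all on chromosome II, at 0.61 to 0.77, and chromosome IV of 10-1-c stands at 0.11.

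Of 380 measured genes of chromosome II, 374 had a value in all 4 strains and in at least 80% of the others, and these are described below. The 6 left out were YBR012W-A, GAL7, YBR090C, BMT2, DTR1 and PCA1. The differences that follow are the mean of the 4 raised strains minus the mean of the other segregants, in log2 units, with the standard error (SE) of a fit over all genes. Since these genes chose the strains, they carry no test. Their median difference was 0.71, or 1.64-fold, with quartiles of 0.50 and 0.88. By strain the median was 0.80 in 13-2-c, 0.74 in 8-1-a, 0.66 in 10-1-c and 0.65 in 15-5-b. The corresponding folds were 1.74, 1.67, 1.58 and 1.56, all below a doubling. Genes elsewhere had a median difference of -0.03, with quartiles of -0.13 and 0.07. With each culture centred on its genes outside chromosome II, the chromosome II median difference was 0.74.

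A difference over 0.5 was found for 281 of 374 chromosome II genes (75.1%), and for 1.21% of 5106 genes elsewhere. All 4 strains lay above all 80 other segregants for 138 chromosome II genes (36.9%), and for 0.0392% of genes elsewhere, which were IME1 and CNE1. All 4 strains lay above the median of the others for 321 chromosome II genes. As the strains were chosen on these genes, the shares describe the choice and show how evenly it falls on the single genes.

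**Figure D2:**
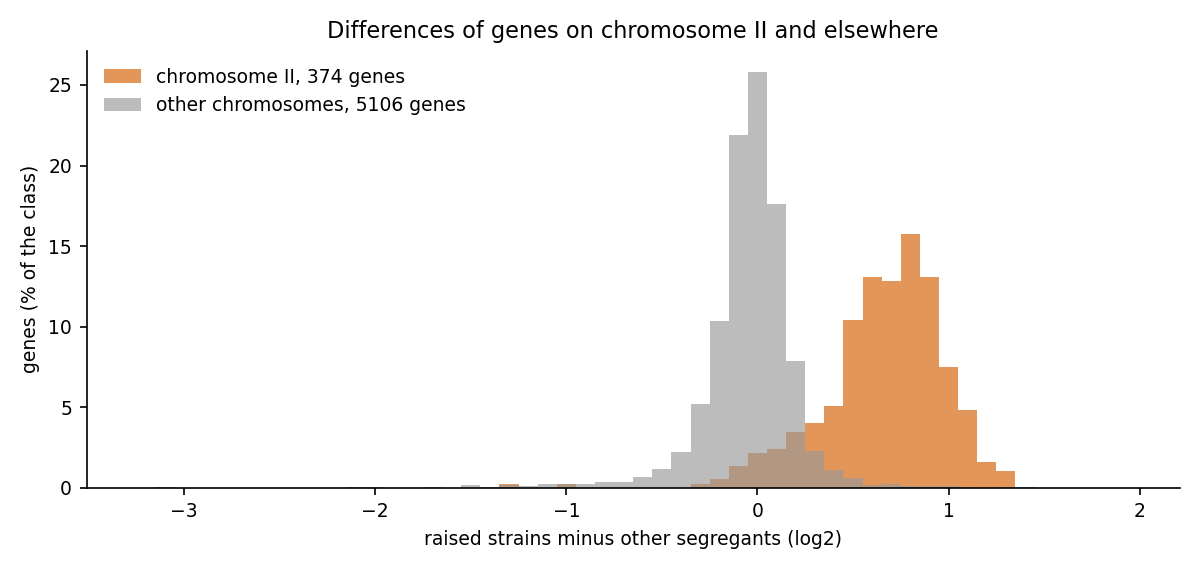
Share of genes (vertical axis, percent of the class) by difference between the raised strains and the other segregants (horizontal axis, log2), for 374 genes of chromosome II and 5106 genes elsewhere. The chromosome II genes centre on 0.71 and the others on -0.03, with a tail of low chromosome II genes under the main peak of the others.

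The difference covered the whole length of the chromosome. In 19 bins, of 20 neighbouring genes each but for a last one of 16, the bin medians of single strains lay between 0.40 and 0.98. The median was 0.73 over 101 genes of the left arm and 0.71 over 273 genes of the right arm. The outermost genes were exceptions. At the left end YBL113C, YBL112C and YBL111C, which are subtelomeric reading frames, had differences of -0.19, -0.10 and -0.04. Their means were -2.21, -2.44 and -2.41 in RM11 and 0.20, 0.12 and -0.04 in BY4716. The next gene, MIX23, already had a difference of 1.13. At the right end MAL32 (maltase), PAU24 and COS2 had -0.04, 0.12 and 0.04, while the neighbouring activator gene MAL33 had 0.71. Subtelomeric genes belong to families with near-identical members elsewhere, so their probes may also report those members. The lowest bin by the mean of the strains, at 0.40, ran from HAP3 to HTB2. Over the 374 genes, the pattern of differences correlated between pairs of strains with Pearson r of 0.21 to 0.66, lowest for 8-1-a with 13-2-c and highest for 10-1-c with 13-2-c. Those pairs share the comparison segregants and the reference pool, so the values are a description.

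**Figure D3:**
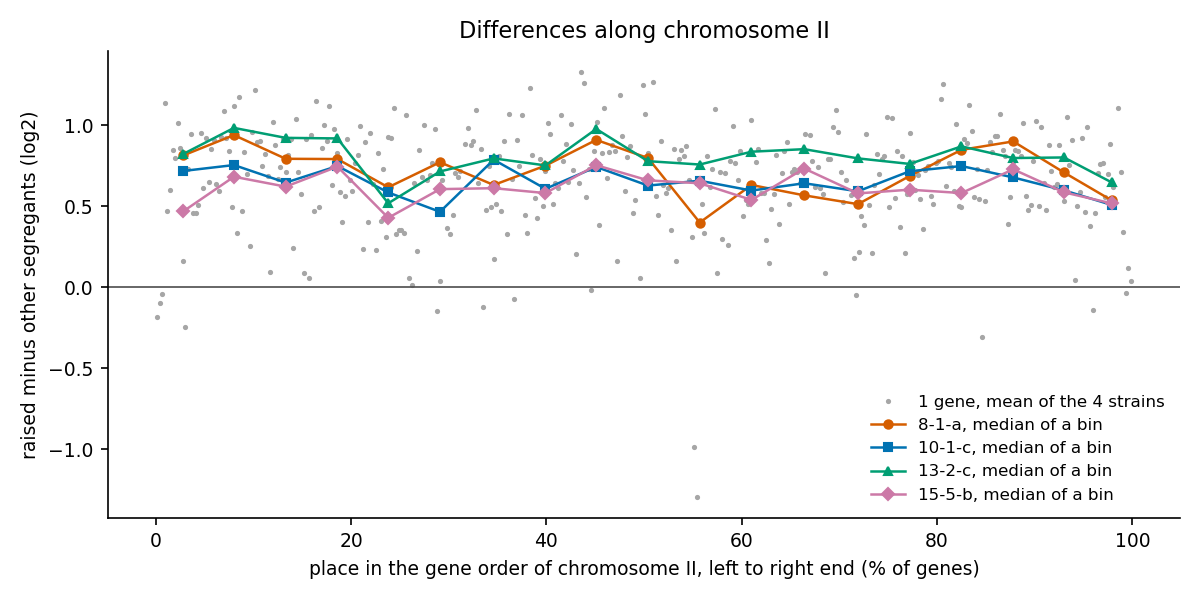
Difference from the other segregants (vertical axis, log2) along chromosome II, by place in the gene order from the left to the right end (horizontal axis, percent of genes). Lines join bin medians of each of the 4 strains, which stay between 0.40 and 0.98, and grey points are single genes averaged over the 4 strains, with a scattered group near or below 0.

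Genes that escaped were counted as those with a difference of at most 0.25. There were 40 of 374 (10.7%), whereas 95% of genes elsewhere lay at or under this limit. Of the 40, 14 lay below 0, and for 33 the upper end of the 95% confidence interval lay under the chromosome's median. In single strains the number at or under 0.25 was 59 in 8-1-a, 43 in 10-1-c, 51 in 13-2-c and 67 in 15-5-b. Only 10 genes were at or under it in all 4 strains. These were HTA2, HHT1, HHF1, FUI1 (uridine permease), DPB3 (a subunit of DNA polymerase epsilon), TKL2, MAL32, IAI11, HAB1 and the retrotransposon gene YBL100W-A. FUI1 stood at 0.33, 0.21, 0.12 and 0.16 in 8-1-a, 10-1-c, 13-2-c and 15-5-b, against a mean of 0.15 ± 0.18 (SD, n = 80) in the other segregants. Its difference of 0.06 had a confidence interval from -0.12 to 0.24, which ends well below 0.71.

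All 4 core histone genes of chromosome II were among the low ones. HTA2, the gene of histone H2A, had -0.06, -0.24, 0.10 and 0.05 in 8-1-a, 10-1-c, 13-2-c and 15-5-b, against -0.09 ± 0.37 (SD, n = 80) in the others. HHF1, the gene of histone H4, had -0.08, -0.59, -0.19 and -0.17 in the same order, against -0.11 ± 0.36 in the others. The 4 strains lay inside the range of the other segregants for both. HTB2 (H2B) and HHT1 (H3), divergent neighbours of HTA2 and HHF1, had differences of 0.01 (SE 0.17) and 0.04 (SE 0.15). The upper ends of the confidence intervals of the 4 genes were 0.42, 0.35, 0.34 and 0.21 in the order HTA2, HTB2, HHT1 and HHF1. HIR1, which encodes a subunit of the HIR repressor of some histone genes and itself lies on chromosome II, was higher by 0.92 (SE 0.09). Whether that repressor acted on these 4 genes was not tested.

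The partner genes of these histones on other chromosomes were not called. HTA1, HHT2 and HHF2 had differences of -0.15, -0.02 and -0.13, with limma adjusted p of 0.804, 0.971 and 0.80. HTB1 stood at -0.39, -0.49, -0.54 and -0.23 in 8-1-a, 10-1-c, 13-2-c and 15-5-b, against a median of 0.10 in the others, a difference of -0.44 (SE 0.16, adjusted p 0.0912). The small difference of HHT2 changed sign under some settings. Each histone pair encodes near-identical proteins, and probe sequences were not used here, so a probe may report both partners.

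Members of other multi-subunit complexes on the chromosome were mostly high. The 27 chromosome II members of the complex lists had a median of 0.62, with 6 low. Without the histones, 23 members had a median of 0.64 with 2 low, RPL4A and RPS9B, whereas the 347 remaining genes had a median of 0.72 with 34 low (9.80%). The ribosomal protein genes RPL19A and RPL19B, which are near-identical, were higher by 0.93 and 0.91. PRE7, a proteasome subunit, was higher by 0.94 (SE 0.11) and RPB5, a shared subunit of the RNA polymerases, by 0.84 (SE 0.13). The respiratory genes ATP1, ATP3 and COR1 had differences of 0.73, 0.67 and 0.57. Each of these genes was above the median of the others in 4 of 4 strains. The 2 low members, RPL4A and RPS9B, had 0.18 and 0.21, and their partners elsewhere, RPL4B and RPS9A, had 0.16 and 0.16. A probe may report both genes of such a pair.

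Many of the low genes varied widely across the other segregants. All 374 chromosome II genes, the histones and LYS2 included, were divided by their SD over the other segregants. Of the 124 most variable, 28 were low, against 5 of the 124 least variable and 7 of the 126 between them. Medians were 0.58, 0.74 and 0.78 in the same order. TKL2, a minor transketolase gene induced by stress, had -0.44, -0.64, -0.46 and -0.13 in 8-1-a, 10-1-c, 13-2-c and 15-5-b, against 0.88 ± 1.65 in the others. Its difference of -1.29 was the lowest on the chromosome, but the SE was 0.82. HSP26, a small heat shock protein gene, had a difference of -0.02 (SE 0.72). The parents differed at both genes, with TKL2 means of 3.85 in RM11 and 1.62 in BY4716. The HSP26 means were -3.04 in RM11 and 0.44 in BY4716. Of the 6 chromosome II genes of the general stress list, 5 were low, and the list's median on the chromosome was 0.09. These were TKL2, HSP26, SSE2, TPS1 (trehalose synthesis) and MOH1. The highest was SSA3, a chaperone gene, at 0.47.

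Some chromosome II genes differed strongly among the 4 strains. THI2, an activator of thiamine genes, had -2.61 in 8-1-a and 0.31, 0.24 and 0.17 in the 10-1-c, 13-2-c and 15-5-b strains. LYS2, of lysine synthesis, stood at 4.19 in 15-5-b and at 0.34, -0.69 and -0.08 in 8-1-a, 10-1-c and 13-2-c, against a range of -2.19 to 6.57 in the others. BY4716, whose RNA is the denominator, lacks LYS2, so a high ratio marks the RM11-1a allele. AMN1, a daughter cell protein whose alleles differ between the parents, stood at -1.15 in 8-1-a and at 0.77, 0.50 and 0.58 in 10-1-c, 13-2-c and 15-5-b. Its parental means were -1.21 in RM11 and -0.10 in BY4716. NRG2, a repressor gene, varied from -1.20 in 8-1-a to 0.80 in 13-2-c, and the parents differed there as well (-1.08 in RM11, 0.48 in BY4716).

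At the top of the chromosome stood BAP2, the permease of branched-chain amino acids, with a difference of 1.33 (SE 0.34). It had 2.24, 1.74, 1.60 and 1.96 in 8-1-a, 10-1-c, 13-2-c and 15-5-b, against 0.56 ± 0.69 (SD, n = 80) in the others, whose highest value was 2.52. LEU2 was at a level like that of its deletion in all 4 strains (-5.36, -5.40, -6.05 and -5.08 in the same order, against -5.68 in RM11). In the other segregants it had a median of -0.66, and with the levels of LEU2, URA3 and STE3 as covariates the BAP2 difference was 0.75. TAT1, another amino acid permease gene, had a difference of 1.26 (SE 0.30), with a mean of 0.64 in the raised strains and -0.62 in the others. Its parental means were -1.87 in RM11 and -0.13 in BY4716, and how much of the difference comes from the alleles was not tested. The acid phosphatase genes PHO3 and PHO5 were 2.37-fold and 2.10-fold higher (SE 0.34 and 0.30 log2 units). All these ranges overlapped with the other segregants.

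Several other genes near the top had no overlap between the raised strains and the other segregants. YBR096W had 1.88, 0.97, 1.08 and 1.43 in 8-1-a, 10-1-c, 13-2-c and 15-5-b, against 0.08 ± 0.19 in the others, without overlap. UBP13, a ubiquitin protease gene, was higher by 1.22 (SE 0.13), MIS1, of mitochondrial folate metabolism, by 1.18 (SE 0.16), and ILS1, the isoleucyl-tRNA synthetase gene, by 1.18 (SE 0.14). PDB1, a subunit of pyruvate dehydrogenase, was higher by 1.16 (SE 0.11) and URA7, a CTP synthase gene, by 1.15 (SE 0.21). None of the raised strains overlapped with the others for these 5 genes. ZTA1, a quinone reductase gene, had a difference of 1.23 and overlapped with the others. It stood at 2.72, 0.53, 0.32 and 1.66 in 8-1-a, 10-1-c, 13-2-c and 15-5-b, against 0.08 ± 0.61 in the others. MIX23 had a difference of 1.13. The 4 highest genes, BAP2, YBR096W, TAT1 and PCS60, were the only ones of 374 that were over 2.378-fold higher, a size passed by 9 genes elsewhere.

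Regulators encoded on the chromosome were mostly raised with it. In a list of 19, put together after the values had been seen, the median was 0.66 and 5 were low. IRA1, an inhibitor of RAS, had a difference of 1.03 (SE 0.10) and RTG3, an activator of the retrograde response, 0.80 (SE 0.12). The chromatin genes ISW1, SPT7 and SNF5 had 0.93, 0.87 and 0.77, and CYC8, a general corepressor gene, 0.66. CDC28, the main cell cycle kinase gene, had -0.04 in 8-1-a and 0.63, 1.04 and 0.82 in 10-1-c, 13-2-c and 15-5-b. The galactokinase gene GAL1 was higher by 0.98 (SE 0.11) and GAL10 by 0.88 (SE 0.11). For the galactose regulators elsewhere, GAL3 (0.28) and GAL80 (0.09), and the permease gene GAL2 (-0.36), adjusted p lay between 0.311 and 0.698. HAP3, TEC1, SMP1 and NRG2, all regulators of transcription, had only 0.24, 0.16, 0.18 and 0.21.

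Genes on the other chromosomes were not used to choose the strains and were tested with limma. Of 5106 genes, 115 (2.25%) differed at an adjusted p under 0.05 when adjusted over all 5480 genes, 63 higher (1.23%) and 52 lower (1.02%). The chromosome II genes, which were chosen to differ, stand in that adjustment and make it more lenient. Adjusted over the genes elsewhere alone, an alternative chosen after seeing the data, 40 genes (0.783%) were called, 29 higher and 11 lower, and all 40 were among the 115. A call is said to hold when both adjusted p are under 0.05, and where a pair is given, the p over all genes comes before that over genes elsewhere alone. Of the 115, 106 had all 4 strains on the same side of the others' median, as had 37 of the 40. Without 8-1-a the count of 115 became 48. Leaving out another strain gave 79 without 10-1-c, 84 without 13-2-c and 91 without 15-5-b. Centring each culture on its genes outside chromosome II changed the split to 98 higher and 32 lower (75.4% higher, against 54.8%).

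The genes called elsewhere were spread over the 15 other chromosomes, with 1.18% to 4.39% of genes called per chromosome. The SD over genes elsewhere was 0.381 ± 0.0175 in the raised strains and 0.375 ± 0.0724 in the others (SD, n = 4 and 80). The exact two-sided permutation test of this difference gave p = 0.883.

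Metabolic genes led the rises. PDH1, which encodes 2-methylcitrate dehydratase of propionate breakdown, stood at 2.43, 1.28, 1.83 and 2.32 in 8-1-a, 10-1-c, 13-2-c and 15-5-b, against 0.20 ± 0.69 (SD, n = 80) in the others. It rose by 1.76 (SE 0.34, adjusted p 5.4e-05), or 3.39-fold. DLD3, a cytosolic dehydrogenase gene, stood at 1.82, 1.68, 1.52 and 1.64 in the same order, against 0.11 ± 0.76 in the others. It rose by 1.56 (SE 0.38, adjusted p 0.00187). CIT2, the peroxisomal citrate synthase gene, stood at 1.99, 1.40, 1.49 and 1.74, against 0.15 ± 0.68, and rose 2.82-fold (SE 0.34 log2 units, adjusted p 0.000598). All 4 strains lay above the others' median for the 3 genes, but inside the range of the others, whose highest values were 3.49, 2.31 and 2.27. The 3 calls held over genes elsewhere alone, at adjusted p of 0.00177, 0.0214 and 0.0105, and under every setting in which the genes could be tested.

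CIT2 and DLD3 are classical targets of the retrograde response, by which yeast adjusts metabolism when mitochondrial function changes. They were 2 of 10 tested genes elsewhere of that list to rise, against 1.23% of all genes elsewhere, and none fell. The list's median was 0.18, against -0.03 over all genes elsewhere. Of 8 genes of propionate and carnitine metabolism, PDH1 and YAT2 rose, and the median was 0.03. YAT2, a carnitine acetyltransferase gene, rose by 0.70 (SE 0.15, adjusted p 0.000337), which held at 0.00674. Both lists were put together after these genes had been seen to rise, so their counts are no independent support. The LEU2 level was low in all 4 raised strains and varied among the others. With the levels of LEU2, URA3 and STE3 as covariates, the differences of CIT2, DLD3 and PDH1 were 1.00, 1.14 and 1.42, with adjusted p of 0.0097, 0.0255 and 0.0012.

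The gene with the clearest separation was IME1, the master regulator of entry into meiosis, which lies on chromosome X. It had 1.10, 0.58, 0.79 and 0.85 in 8-1-a, 10-1-c, 13-2-c and 15-5-b, against a range of -0.52 to 0.28 in the others. It rose by 0.92 (SE 0.09, adjusted p 2.32e-13), and the call held in 16 of 16 settings. Of 10 genes of entry into sporulation, a list chosen after the values were seen, IME1 alone rose, against 1.23% of all genes elsewhere. The list's median was -0.03. CNE1, the calnexin gene on chromosome I, had 0.62, 0.39, 0.50 and 0.64, against a highest value of 0.22 in the others. It rose by 0.67 (SE 0.09, adjusted p 1.05e-09). MIY2, a deubiquitinase gene chosen after its values were seen, rose by 0.65 (SE 0.09, adjusted p 2.22e-08), and YPS7, of the yapsin protease family and likewise chosen, by 0.42 (SE 0.08).

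YGL138C, of unknown function, rose by 1.29 (SE 0.27), with 2.41, 1.58, 1.24 and 1.67 in 8-1-a, 10-1-c, 13-2-c and 15-5-b, against 0.43 ± 0.54 in the others. The call held. Rises that held further included, chosen after their values were seen, ATM1 (a mitochondrial transporter, 0.56), STT3 (an oligosaccharyltransferase subunit, 0.41) and SCH9 (a growth kinase, 0.41). DIP5, a permease of acidic amino acids, and FSF1 had differences of 0.81 and 0.79 and passed over all genes at adjusted p of 0.0136 and 0.0169. Over genes elsewhere alone their adjusted p were 0.0796 and 0.0838.

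Several genes elsewhere that were higher have a near-identical partner on chromosome II. TEF1, a gene of translation elongation factor EF-1A, rose by 0.98 (SE 0.19, adjusted p 4.28e-05), while its partner TEF2 on chromosome II was higher by 0.75 (SE 0.17). In single strains TEF1 had 1.51, 0.23, 1.03 and 0.85 in 8-1-a, 10-1-c, 13-2-c and 15-5-b, and TEF2 0.85, 0.24, 1.09 and 0.81, and 10-1-c was the lowest for both. The BY4716 cultures, compared with a pool of their own strain, had a TEF1 mean of 0.90, close to the mean of 0.91 in the raised strains. Of the 80 other segregants, 68 had a TEF1 value. RPS8B rose by 0.67 (adjusted p 0.00414, held at 0.033) beside RPS8A at 0.70. RPS6A had 0.59 (adjusted p 0.0189, and 0.0873 over genes elsewhere alone) beside RPS6B at 0.57. Of the 124 cytosolic ribosome genes elsewhere, these were the only 2 called over all genes, against 2.25% of all genes elsewhere, and the list's median was -0.01. Probes of such pairs may report both genes, so the rises of TEF1, RPS8B and RPS6A are uncertain.

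Other related genes outside chromosome II were not called. BAP3 had 0.10 beside BAP2 at 1.33, and BOI2, a gene of cell polarity, -0.07 beside BOI1 at 0.93. UBP9 had -0.66 (adjusted p 0.144) beside UBP13 at 1.22. In these 3 pairs the genes elsewhere were not called, with adjusted p of 0.804, 0.758 and 0.144. Some ribosomal protein genes that were likewise not called lay closer to their partners. RPS11A had 0.46 (adjusted p 0.0529) beside RPS11B at 0.55, and RPL21B 0.37 (adjusted p 0.18) beside RPL21A at 0.63. RPL4B had 0.16 beside RPL4A at 0.18, and RPS9A 0.16 beside RPS9B at 0.21. RPL23B, at 0.21, lay further from RPL23A at 0.64.

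**Figure D4:**
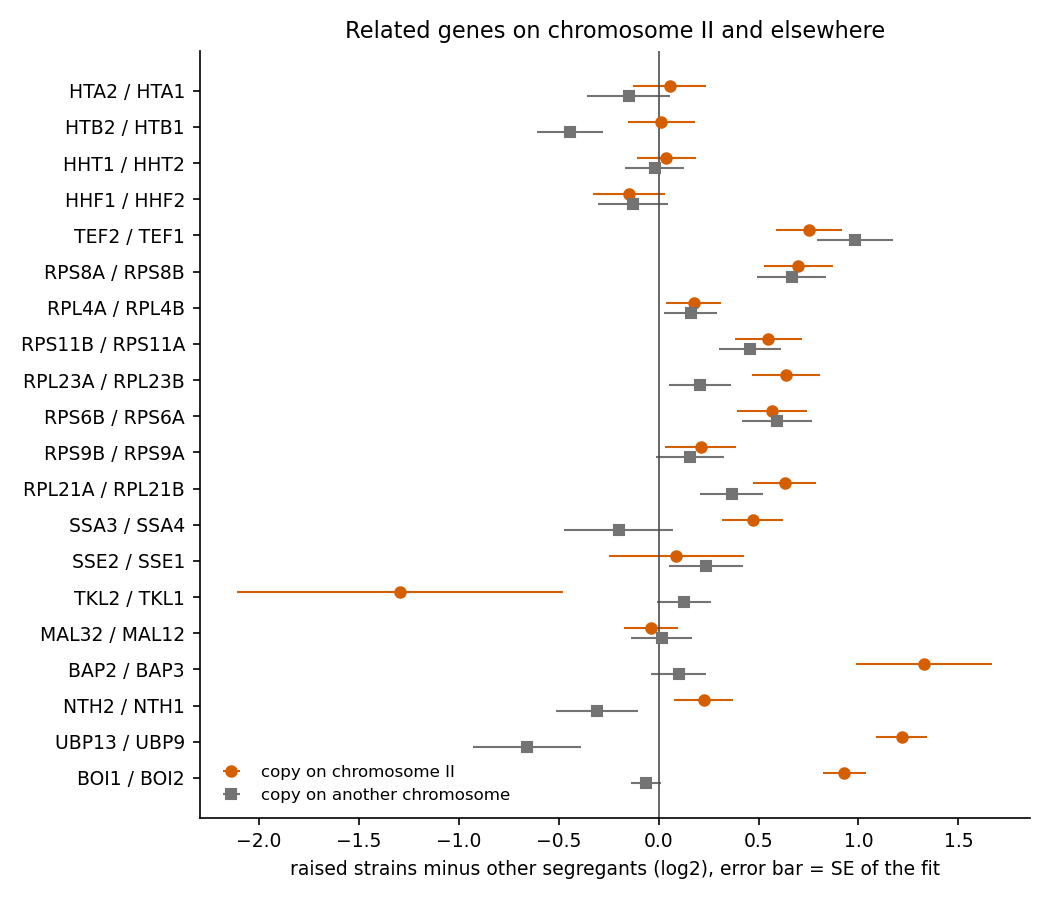
Difference between the raised strains and the other segregants (log2, error bars are the SE of the fit) for 20 pairs of related genes, 1 on chromosome II and 1 elsewhere. Both histone partners lie near or below 0, TEF2 and TEF1 lie at 0.75 and 0.98, and BAP2, UBP13 and BOI1 lie far from their partners.

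Hexose transporter genes were among the largest falls. HXT4 had -1.44, -1.67, -0.03 and -0.98 in 8-1-a, 10-1-c, 13-2-c and 15-5-b, against 0.43 ± 0.78 in the others. It fell by 1.46 (SE 0.39, adjusted p 0.00613), which held at 0.0429, with all 4 strains below the others' median. HXT6 and HXT7, near-identical neighbours that one probe may not separate, had -1.41 and -1.30, and HXT8 had -1.15. Their adjusted p were 0.00887, 0.0127 and 0.0149 over all genes, and 0.0586, 0.0787 and 0.0825 over genes elsewhere alone. Of 15 hexose transport genes tested, 4 were called lower and 1, HXT12, higher over all genes, with a median of -0.11. Over all genes elsewhere the shares were 1.02% lower and 1.23% higher. HXT4 alone of the list held, against 0.783% of all genes elsewhere. The difference of HXT12 came from 8-1-a, with 2.10 there and -0.32, -0.02 and -0.14 in 10-1-c, 13-2-c and 15-5-b, against a median of -0.39 in the others. It had a value of 0.82 (adjusted p 0.0282 and 0.112), and without 8-1-a it was 0.26 (adjusted p 0.758).

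Stress and storage genes were also called lower over all genes, HSP12 with the most negative difference of the 115 called genes, and none of their calls held. HSP12, a small stress protein gene, had -2.44, -3.97, -3.53 and -2.46 in 8-1-a, 10-1-c, 13-2-c and 15-5-b, against 0.02 ± 2.11 in the others. Its difference of -3.12 (SE 1.05) had adjusted p of 0.0498 over all genes and 0.163 over genes elsewhere alone. GPH1 (glycogen phosphorylase) had a difference of -2.02 (SE 0.60, adjusted p 0.0189 and 0.0873), PGM2 (phosphoglucomutase) -1.53 (0.0437 and 0.149) and GSY1 (glycogen synthase) -1.29 (0.0229 and 0.0956). Of 47 tested genes of the general stress list elsewhere, these 4 were called lower over all genes and 0 over genes elsewhere alone, against 1.02% and 0.783% of all genes elsewhere, and the list's median was -0.90. MSN4, a transcription activator of stress genes, had -0.87 (0.00949 and 0.0609), and PBI2, a protease inhibitor gene, -1.04 (0.0218 and 0.0926).

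The mean level of these 47 stress genes, each centred on the mean of the other segregants, was -0.76, -1.40, -0.81 and -1.07 in 8-1-a, 10-1-c, 13-2-c and 15-5-b. In the other segregants it ranged from -1.39 to 1.65 with a median of -0.03. Of the 80 others, 16 lay below 8-1-a, 0 below 10-1-c, 15 below 13-2-c and 6 below 15-5-b. The raised strains were therefore low in the list but, apart from 10-1-c, within the range of the others. The 30 heat shock and folding genes had strain levels from -0.08 to 0.13, the 92 ribosome biogenesis genes from -0.23 to 0.17 and the 32 proteasome genes from -0.09 to 0.19. For the proteasome genes, 17 of the 80 others lay below 8-1-a, 29 below 10-1-c, 78 below 13-2-c and 75 below 15-5-b. The numbers in the same order were 21, 24, 71 and 39 for heat shock and 14, 50, 54 and 57 for ribosome biogenesis. No gene of these 3 lists was called, beside 2.25% of all genes elsewhere.

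The 11 falls that held, apart from HXT4 all chosen after their values were seen, were of moderate size and came from various processes. MDG1 fell by 0.82 (SE 0.22), EDC2, of mRNA decapping, by 0.79 (SE 0.20) and MTC3 by 0.53 (SE 0.14). COA6, of cytochrome oxidase assembly, had -0.56, -0.48, -0.46 and -0.71 in 8-1-a, 10-1-c, 13-2-c and 15-5-b, against -0.03 ± 0.27 in the others, and fell by 0.52 (SE 0.13). DIA2, SDS22, YKL069W, FYV6, APC9 and VPS21, an endosomal GTPase gene, fell by 0.43, 0.38, 0.36, 0.36, 0.31 and 0.30. GPA1, the G protein subunit of the pheromone pathway, had -0.63 (adjusted p 0.020 and 0.0915).

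**Figure D5:**
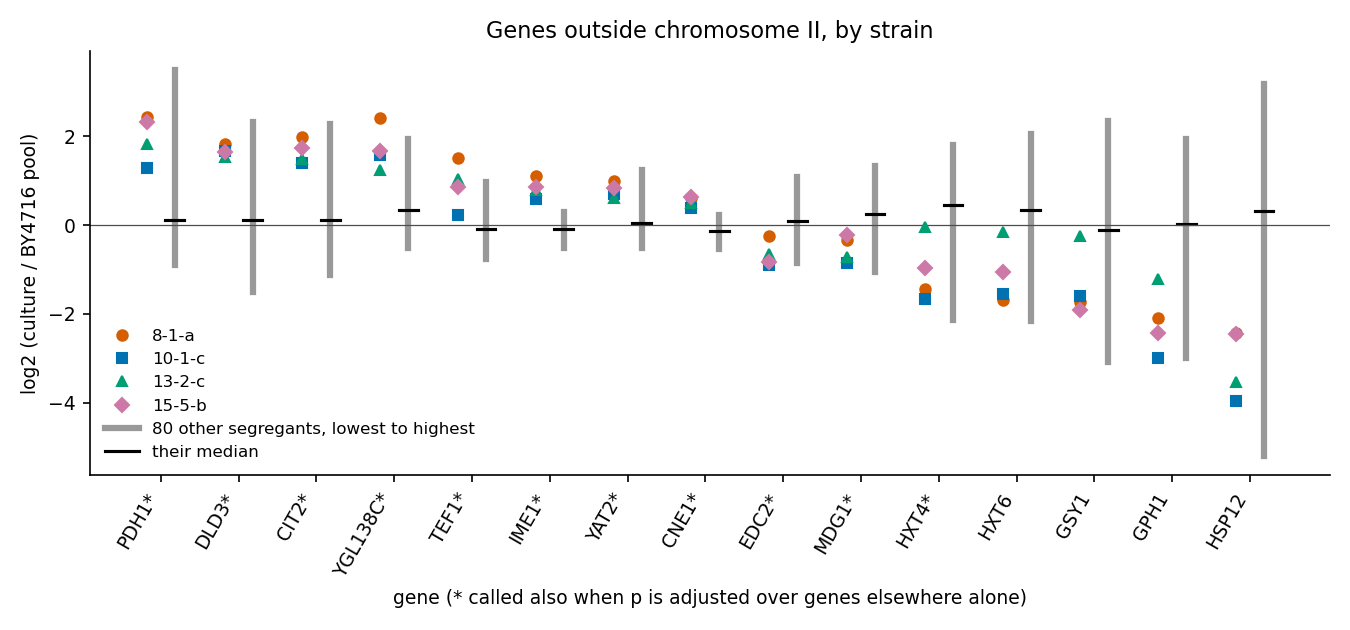
Levels of 15 genes outside chromosome II (log2 of culture over BY4716 pool) in the 4 raised strains as coloured symbols and in the 80 other segregants as a grey line from the lowest to the highest with their median. IME1 and CNE1 show no overlap, PDH1, DLD3 and CIT2 lie at 1.28 to 2.43 inside the range of the others, and an asterisk marks genes called also when p is adjusted over genes elsewhere alone.

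Some calls rested on 1 strain, and those of TOF1, PPT2, RIM20, CEF1 and IQG1 were examined after their values were seen. TOF1, of the replication fork, had 4.70 in 8-1-a and between -0.24 and 0.10 in 10-1-c, 13-2-c and 15-5-b, and its difference of 1.31 became 0.13 without 8-1-a. PPT2 had 4.14 in 8-1-a, and its difference of 0.98 became -0.04 without that strain. RIM20 and CEF1 likewise became -0.07 and 0.17 without 8-1-a, against 0.50 and 0.49. RIM20 had not held with all 4 strains (adjusted p 0.0140 and 0.0796). The array of 8-1-a titled Cy5 had values for 4496 genes, the fewest of the 8 arrays of the raised strains. Among the other segregants the poorer array of a strain had 3433 to 5570 (median 5397.5). The 2 arrays of 8-1-a correlated over genes elsewhere with r of 0.69, against 0.43 to 0.91 in the others (median 0.75). Whether the single-strain values of 8-1-a come from 1 array was not tested. IQG1, of cytokinesis, had 2.17 in 15-5-b, and its difference of 0.60 became 0.08 without it. PHO12, an acid phosphatase gene, had 2.80 in 15-5-b and 1.13, 0.41 and 0.28 in 8-1-a, 10-1-c and 13-2-c, and its difference of 1.05 (adjusted p 0.0487 and 0.162) became 0.50 without 15-5-b. PHO84, the phosphate transporter gene, was likewise highest in 15-5-b (5.18) and next in 8-1-a (2.83), with 0.89 and 0.54 in 10-1-c and 13-2-c, and was not called (adjusted p 0.200).

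Other lists showed few or no called genes, beside 2.25% of all genes elsewhere. At that share few or no calls would fall in lists of this size, so the counts say little about these lists. In mitochondrial ribosome and respiratory chain lists, 0 of 66 and 0 of 35 genes elsewhere were called, with medians of -0.21 and -0.24, while their chromosome II members had medians of 0.58 and 0.67. For amino acid starvation, 0 of 32 were called (median 0.15). For synthesis of leucine and branched-chain amino acids, 0 of 13 were called at a median of 0.52, in strains that all had low LEU2. For both the a-specific and the alpha-specific mating genes 0 of 7 were called. In the glycolysis list 1 of 15 genes elsewhere was called, ENO1 (adjusted p 0.0279 and 0.112). It had 1.02 and 1.29 in 8-1-a and 15-5-b and 0.00 and 0.27 in 10-1-c and 13-2-c. The BY4716 cultures, compared with a pool of their own strain, had an ENO1 mean of 1.06, so this call is uncertain. Of 30 RNA polymerase genes elsewhere, 2 were called, RPO21 at 0.26 and RPO31 at 0.39. Their adjusted p were 0.0306 and 0.0307, and 0.116 for both over genes elsewhere alone.

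The strains did not share 1 genotype at the markers of the cross other than LEU2. STE2, the receptor of a cells, stood at 4.04, 5.09 and 3.99 in 8-1-a, 10-1-c and 13-2-c and at -0.26 in 15-5-b. STE3, the receptor of alpha cells, had -5.82, -6.12 and -5.45 in the first 3 of these strains and -1.42 in 15-5-b. URA3 was low in 8-1-a, 10-1-c and 15-5-b (-3.92, -4.76 and -5.45) and at 0.25 in 13-2-c. HO was low in 8-1-a, 13-2-c and 15-5-b (-3.80, -4.43 and -3.17) and at -0.25 in 10-1-c. DSE1 and DSE2, of daughter cell separation, were low in 8-1-a (-4.56 and -2.43), the strain with the low AMN1 value. With the levels of LEU2, URA3 and STE3 as covariates, 121 genes elsewhere were called, 90 of them shared with the 115. Each raised strain was also set against the segregants whose titles share its first number. There were 6, 3, 4 and 4 of them for 8-1-a, 10-1-c, 13-2-c and 15-5-b. PDH1, DLD3, CIT2, IME1, TEF1, HXT4 and HSP12 had the same sign in 4 of 4 comparisons. These genes already had all 4 strains on 1 side of the others' median, so the signs are no independent support. LEU2, HO and HTB1, which were not called, and HXT12, whose difference came from 8-1-a, also had the same sign in 4 of 4.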

How the data were processed

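RNA of 90 cultures was hybridised on 180 two-colour arrays. Each value as deposited by the authors is a logarithm of culture RNA over a BY4716 reference pool, read as log2 from its range, since no base is stated. The authors had brought the log2 ratios of every array to a mean of 0, as the values show. The scanner, the treatment of background, any filter on spots and the balance of dyes are not given in the sources used here. Arrays held 3769 to 6570 values (median 6288.5). Their number limits the precision. Of 7085 probes, 5645 had 1 gene symbol, 0 several and 1440 none. All 5645 matched RefSeq R64, used for names and gene order. They gave 5605 genes, 40 of them averaged from 2 probes.

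The members, gene lists and tests were chosen with earlier results of these data known. The 4 additional lists, 20 gene pairs and 2 alternatives were added after seeing the present values. Both arrays of a culture were averaged. limma 3.58.1 in R 4.3.3 compared 4 raised strains with 80 others, two-sided, with Benjamini-Hochberg adjustment over 5480 genes with values in all 4 strains and at least 80% of the others, at a threshold of 0.05. Confidence intervals are 95%. Chromosome II genes were given no p-value. Named genes were the 12 largest and 15 smallest differences on chromosome II, the 10 largest rises and falls elsewhere with all 4 strains on 1 side, up to 2 called genes per list and direction, and a fixed set including histones, galactose genes and strain markers. Other genes named were chosen after their values were seen. Alternatives covered centring, quantile normalization, single dyes, filters, covariates, the first number of the titles, left-out strains and the variance model. The fit and the permutation test were tested on simulated data. No sequences were used here.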

Additional observations from a re-analysis of the deposited data

Results flagged for a closer look

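Among the 4 raised strains, 7 of 90 named items had 1 strain whose gap to the nearest other strain took an unusually large share of the range by Dixon's criterion, which flags about 1 in 20 groups by chance. Of the 7, 4 were in 8-1-a, 2 in 15-5-b, 1 in 13-2-c and 0 in 10-1-c. The Cy5-titled array of 8-1-a had the fewest gene values of the 8 arrays of the raised strains, 4496. In 8-1-a, THI2 (-2.61), DSE1 (-4.56) and AMN1 (-1.15) lay far below the other 3 strains, and HXT12 (2.10) far above them. In 15-5-b, STE3 (-1.42) lay far above the others, and HAP1 (-1.11) far below values of -0.31 to -0.41. In 13-2-c, the proteasome gene PRE7 (1.58) lay above values of 0.88 to 0.95.

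Signals outside the comparison appeared in the 2 segregants set aside. The chromosome XIII median of 9-4-d was 0.74. In 14-6-d the medians of chromosomes IV and IX were 0.68 and 0.65. Chromosome medians of the 80 other segregants did not exceed 0.14.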

How the results depend on the processing

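The count of 115 genes called elsewhere moved most with the adjustment and the filter. It was 40 (29 higher, 11 lower) when p was adjusted over genes elsewhere alone. It was 24 (12 higher, 12 lower) over the 937 genes elsewhere with a value on every array, where fewer genes were tested. Centring on genes outside chromosome II gave 98 higher and 32 lower, with a total of 130. Leaving out 1 raised strain gave 48 to 91 called, 29 to 56 higher and 19 to 41 lower, the lowest total without 8-1-a. Other planned settings gave 81 to 127 called, and 112 were called without the chromosome IV values of 10-1-c, a setting added after seeing the data. The first title number, whose meaning is not stated, gave 95 as a block, with 76 shared, and signs within each number are in the report. No paired analysis was possible because the labels give the segregants no replicate numbers beyond it. On chromosome II, the median difference of 0.71 was 0.60 after quantile normalization and 0.67 to 0.74 with 1 strain left out. The 40 low genes became 9 of 79 with a value on every array. The 4 genes over 2.378-fold became 2 after quantile normalization, 2 on Cy3-titled arrays, 2 with a value on every array, and 2 to 9 with 1 strain left out. The difference in SD of genes elsewhere, 0.01 in the main fit, was -0.0243 after quantile normalization (exact permutation p 0.209), -0.00244 on Cy3-titled arrays and -0.00136 to 0.011 with 1 strain left out.

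Among the genes named in the report, 14 values changed sign, all of genes that were not called. The HHT2 difference was 0.00645 with centring on genes outside chromosome II, 0.0676 on Cy5-titled arrays, 0.0233 with the marker covariates and -0.0636 to 0.0199 with 1 strain left out, above 0 without 10-1-c. The HAP1 difference was -0.20 on Cy5-titled arrays, -0.24 with the title block and -0.0631 to 0.205 with 1 strain left out, above 0 without 15-5-b. The DSE1 difference was -0.27 to 1.16 with 1 strain left out, above 0 without 8-1-a. STE2 was -0.53 with the covariates and URA3 0.60 with the title block. With p adjusted over genes elsewhere alone, 18 named genes were no longer called. Of the recomputed values of named genes, 1268 kept direction and call, 108 lost the call and 7 untested values moved. PDH1, DLD3, CIT2, IME1, YGL138C and TEF1 were called in all settings run on them. With 4 strains precision is limited, and the log base is not stated. Except where noted, the causes of these changes were not tested.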
